A study of Rattus norvegicus with 325 samples.

Results

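The potassium channel genes of rat skeletal muscle were read as every gene whose symbol starts with Kcn. The count tables listed 91 such symbols, and 65 of them, of 17315 symbols in all, had at least 10 counts in at least 9 of the 325 libraries and were kept as members. The members were 27 voltage-gated pore subunits, 7 calcium- or sodium-activated channels, 10 inward rectifiers, 7 tandem-pore channels and 14 accessory proteins. The rule used symbols and counts and no measured change, though it was set with earlier results of these data known. Just inside the limit were Kcnj5 and Kcnk10 with 10 libraries each, Kcnc2 with 11 and Kcnmb4 with 12, and just outside it was Kcng1 with 7.

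Total RNA of 4 muscles of male Sprague Dawley rats was sequenced: 85 libraries came from the tibialis anterior, 84 from the soleus, 83 from the diaphragm and 73 from the gastrocnemius. The rats were 6, 9 or 12 months old, or 18, 21, 24 or 27 months, with 9 to 13 libraries for each muscle and age. The rats were untreated, were bought soon after weaning, aged at the supplier and moved to the study site before collection, so every group was handled in this way and no genetic change was made. The 6-month rats were the reference group, and the question was how each muscle changed with age. Muscles of one age were taken on one day, so age and collection day cannot be told apart.

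Potassium channels let potassium leave or enter the fibre along its gradient. In skeletal muscle they return the membrane to rest after each action potential, hold the resting potential together with chloride channels, and, in the case of the ATP-sensitive channel, couple excitability to the energy state of the fibre. Fibres that lose their nerve are known to change their set of channels, and small-conductance calcium-activated channels are a known feature of such fibres.

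The promoters of 3 members that carry the pattern described here are shown, from 250 bases before to 50 bases after the start of the gene, as RefSeq gives them on GRCr8, a later build than the one the counts were made on. Kcnn3 and Kcnq5 rose together in the limb muscles, and Kcnc4 rose in the soleus. Capitals mark matches to CAGCTG, an E-box of the kind that myogenic factors bind, and to TGTGGT, the core bound by Runx factors, on either strand; the third motif searched, TGACGTCA, overlaps neither.
Kcnn3 (chr2:177234090-177234389, plus strand): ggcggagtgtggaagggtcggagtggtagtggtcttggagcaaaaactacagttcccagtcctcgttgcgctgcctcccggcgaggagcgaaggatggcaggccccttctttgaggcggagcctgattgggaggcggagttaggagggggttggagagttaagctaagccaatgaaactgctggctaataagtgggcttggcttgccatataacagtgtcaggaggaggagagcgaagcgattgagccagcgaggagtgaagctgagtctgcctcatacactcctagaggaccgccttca
Kcnq5 (chr9:31891232-31891531, minus strand): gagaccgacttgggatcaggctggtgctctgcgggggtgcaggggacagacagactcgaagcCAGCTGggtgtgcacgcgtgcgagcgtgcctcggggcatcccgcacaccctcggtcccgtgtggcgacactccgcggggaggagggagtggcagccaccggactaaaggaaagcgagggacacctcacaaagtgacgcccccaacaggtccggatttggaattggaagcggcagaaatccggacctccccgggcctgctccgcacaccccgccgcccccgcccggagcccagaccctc
Kcnc4 (chr2:197788384-197788683, minus strand): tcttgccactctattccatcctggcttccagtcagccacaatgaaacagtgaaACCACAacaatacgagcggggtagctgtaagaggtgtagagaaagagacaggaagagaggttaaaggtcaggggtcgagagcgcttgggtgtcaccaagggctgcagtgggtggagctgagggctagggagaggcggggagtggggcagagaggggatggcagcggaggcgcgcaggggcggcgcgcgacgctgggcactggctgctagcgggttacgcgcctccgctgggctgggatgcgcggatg
The Kcnq5 promoter held 1 CAGCTG, the Kcnc4 promoter held 1 TGTGGT, and the Kcnn3 promoter held none of the 3 motifs. RefSeq promoters were matched for 43 members. CAGCTG occurred in 13 of these 43 and in 15.1% of 33469 rat promoters, TGTGGT in 5 of 43 and in 17.3% of all, and TGACGTCA in 0 of 43 and in 1.83% of all. A match describes the letters in this window and is not a binding site.

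Depth was 17.6 to 85.3 M counts per library (median 31.9 M). Potassium channel genes took a median of 0.0805% of diaphragm counts, and 0.102%, 0.0994% and 0.1003% of gastrocnemius, soleus and tibialis anterior counts. The muscle identities held in the myosin genes at 6 months: Myh7, the slow myosin, had a median of 47500 CPM (read counts scaled to library size with TMM factors) in the soleus and 2060 CPM in the tibialis anterior, while Myh4, the fastest myosin, had 8.39 and 87400 CPM. Of the 325 libraries, 6 stood apart, with correlations of 0.9317 to 0.9746 with the mean of their own group against a median of 0.9939, and the counts of changed members moved by less than 1.5 times without them. The running numbers of the sample labels put every gastrocnemius library in one series and the 12-month libraries of the other muscles in another, so contrasts of the gastrocnemius with other muscles, and of 12 with 6 months outside the gastrocnemius, cannot be told apart from these series.

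The members were compared at each age with 6 months within each muscle, by limma-voom over all genes, and a gene was called when its Benjamini-Hochberg adjusted p was under 0.05 and its change over 1.5-fold. At least 1 comparison could be made for 60 members, 44 of which passed the filter on low counts in all 4 muscles, while Kcnc2, Kcng2, Kcnj5, Kcnk10 and Kcnmb4 passed it in none. At 27 months, 6 of 55 tested members were higher and 4 lower in the diaphragm (all genes tested: 3.27% higher, 4.25% lower). In the gastrocnemius 16 of 51 were higher and 7 lower (15.1% and 7.76% of all genes). The soleus had 13 of 55 higher and 8 lower (9.21% and 5.78%). The tibialis anterior had 16 of 51 higher and 9 lower (17.2% and 10.4%). Both directions together made 18.2%, 45.1%, 38.2% and 49% of the tested members of the 4 muscles, beside 7.52%, 22.8%, 15% and 27.6% of all genes. The median change of the tested members was 0.02, 0.18, 0.22 and 0.17 on the log2 scale, and that of all genes 0.00, 0.04, 0.02 and 0.02. Their spread was wider: the median size of a change, whatever its sign, was 0.27, 0.53, 0.58 and 0.74 for the members and 0.17, 0.30, 0.23 and 0.33 for all genes. A wider spread was already there at 9 months, when no member was called. The medians were then 0.199, 0.199, 0.203 and 0.204 for the members and 0.060, 0.069, 0.077 and 0.058 for all genes. The width alone is therefore no measure of a change with age. Scaling to total counts in place of TMM moved the split to 16 higher and 6 lower in the soleus (72.7% higher against 61.9%) and to 23 higher and 4 lower in the tibialis anterior (85.2% against 64%), and moved the median of all genes there to 0.16 and 0.34. The gastrocnemius went to 21 higher and 6 lower (77.8% against 69.6%), with a median of all genes of 0.32. The diaphragm went to 7 higher and 3 lower (70% against 60%), with a median of 0.04.

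At 27 months no member was called in all 4 muscles. Called in 3 muscles were 9 members, of which Kcnd3, Kcnip3, Kcnj3, Kcnj6, Kcnn3 and Kcnq5 rose and Kcna7, Kcnj11 and Kcnj8 fell. Another 15 were called in 2 muscles: 9 rose in both, 5 fell in both, and Kcnip2 fell in the soleus and rose in the tibialis anterior. In 1 muscle alone 22 were called, and 19 were called in none at that age. These 19 include the 5 members that could be tested in no muscle, and 16 of all members were tested in some muscles only. The same split was not made for all genes, so these counts describe the members alone.

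**Figure D1:**
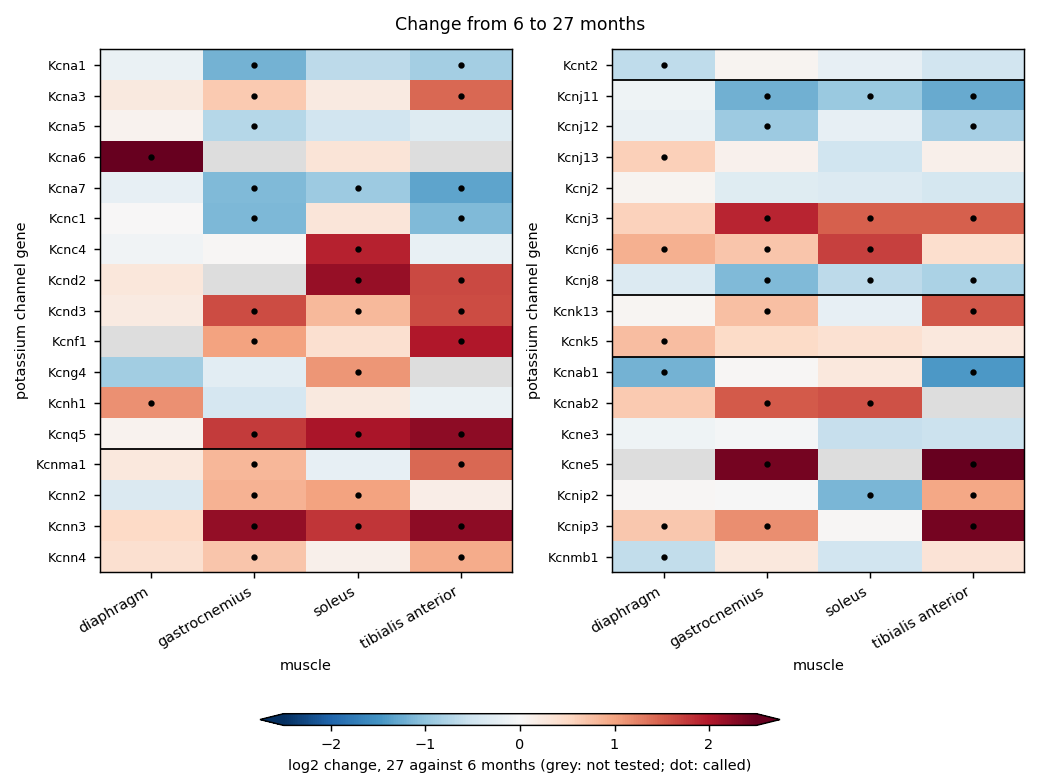
Log2 change from 6 to 27 months of 34 members named in the text (rows, grouped by lines into voltage-gated, calcium- or sodium-activated, inward rectifier, tandem-pore and accessory genes) in the 4 muscles (columns). Red is higher and blue lower at 27 months, grey was not tested, and a dot marks a called change; the colour scale ends at 2.5 on either side, and the diaphragm column holds 9 dots against 21, 14 and 20 in the gastrocnemius, soleus and tibialis anterior.

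Of the 7 calcium- or sodium-activated members, the gastrocnemius had 4 called higher, the tibialis anterior 3 and the soleus 2, and 0 were called lower. Of all genes 15.1%, 17.2% and 9.21% were higher in these muscles and 7.76%, 10.4% and 5.78% lower. Kcnn3 encodes the small-conductance channel SK3, whose pore opens on calcium alone. In the gastrocnemius Kcnn3 had 28.6 to 34.4 CPM (median 31) in 10 libraries of 6 months and 78.0 to 192 CPM (median 148) in 11 of 27 months. In the tibialis anterior it had 30.9 to 44.5 CPM (median 38.3) at 6 months and 114 to 250 CPM (median 181) at 27 months, with 12 libraries each. The groups of both muscles did not overlap. In the soleus it went from 26.4 to 41.1 CPM (median 34.4) to 40.8 to 169 CPM (median 115), and 11 of the 12 old libraries lay above every young one. The changes were 2.20 ± 0.13 (log2, ± SE; 4.6-fold; adjusted p = 8.28e-24), 2.24 ± 0.12 (4.73-fold; adjusted p = 3.96e-28) and 1.78 ± 0.14 (3.43-fold; adjusted p = 1.14e-18) in the gastrocnemius, tibialis anterior and soleus. In the diaphragm Kcnn3 had 24.8 to 32 CPM (median 27.7) at 6 months and 29.0 to 70.5 CPM (median 34.2) at 27 months, a change of 0.49 ± 0.10 that passed the adjusted p (3.28e-05) but not the fold threshold. The change was smaller in the diaphragm than in the gastrocnemius by a tested difference of 1.66 ± 0.18 (adjusted p = 1.53e-15) and than in the tibialis anterior by 1.71 ± 0.17 (adjusted p = 1.07e-17).

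Kcnma1, the pore of the large-conductance BK channel, rose in the fast limb muscles from a median of 57.3 to 101 CPM in the gastrocnemius (0.82 ± 0.08, adjusted p = 1.45e-14) and from 32.5 to 92.1 CPM in the tibialis anterior (1.44 ± 0.12, adjusted p = 3.1e-18). Its 6- and 27-month libraries did not overlap in either muscle. In the soleus, where its young level was highest, it had a median of 246 CPM at 6 months and 206 CPM at 27 months (-0.20 ± 0.05, below the fold threshold). The change in the tibialis anterior exceeded that in the soleus by 1.66 ± 0.12 (adjusted p = 1.12e-30). Kcnn2, the SK2 channel, rose in the gastrocnemius (0.88 ± 0.16, median 1.77 to 3.30 CPM) and the soleus (1.01 ± 0.24, 0.987 to 1.95 CPM). Kcnn4, the intermediate-conductance channel also known from blood cells, rose in the gastrocnemius (0.70 ± 0.19) and the tibialis anterior (0.92 ± 0.22), where all 12 old libraries lay above the young ones. Kcnt2, a sodium-activated channel, was the only one of the 7 called in the diaphragm, where it fell by 0.63 on the log2 scale (SE 0.11; median 6.02 to 3.88 CPM).

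**Figure D2:**
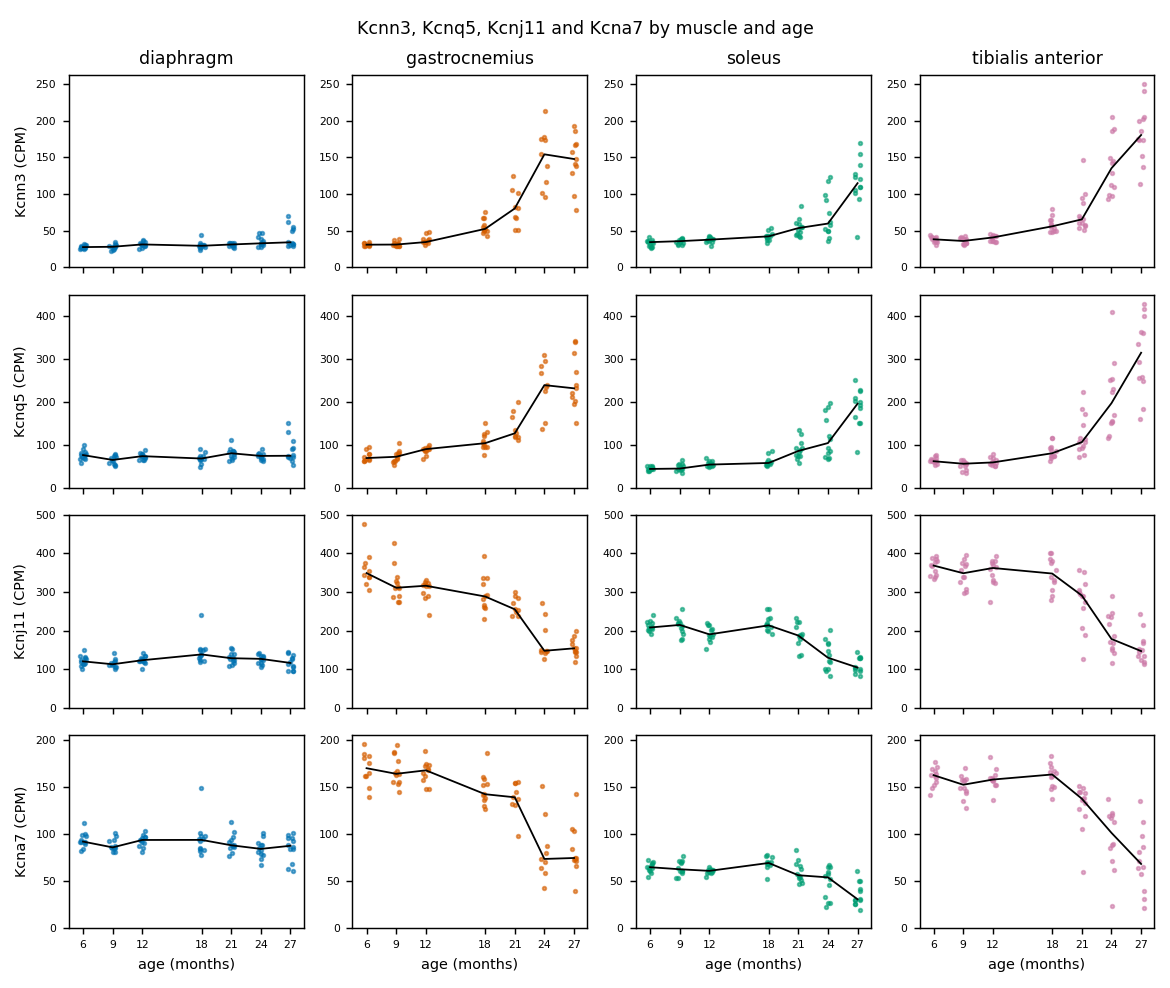
CPM (vertical axis, from 0) against age in months for Kcnn3, Kcnq5, Kcnj11 and Kcna7 (rows) in the 4 muscles (columns); points are libraries, slightly spread sideways, and the black line joins the medians of the ages. In the limb muscles Kcnn3 and Kcnq5 climb and Kcnj11 and Kcna7 drop after 18 months, while the diaphragm medians of Kcnq5 stay between 64.3 and 79.9 CPM.

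Voltage-gated pore subunits open on depolarisation and repolarise the fibre. At 27 months 2 of 23 tested were higher and 1 lower in the diaphragm. The gastrocnemius had 5 of 21 higher and 4 lower, the soleus 7 of 23 and 1, and the tibialis anterior 7 of 21 and 5. Of all genes 3.27%, 15.1%, 9.21% and 17.2%, in this order, were higher and 4.25%, 7.76%, 5.78% and 10.4% lower. Kcnq5, a channel of the slowly activating M-type family, had 52.3 to 75.2 CPM (median 61.4) in the tibialis anterior at 6 months and 159 to 428 CPM (median 314) at 27 months. In the gastrocnemius it went from 61.3 to 95.5 CPM (median 68.8) to 150 to 342 CPM (median 231), and in the soleus from 38.8 to 51.3 CPM (median 43.4) to 82.3 to 250 CPM (median 196). Young and old libraries did not overlap in any of these 3 muscles. The changes were 2.23 ± 0.15 (adjusted p = 2.22e-22), 1.75 ± 0.13 (adjusted p = 5.23e-19) and 2.04 ± 0.14 (adjusted p = 1.64e-21). In the diaphragm Kcnq5 had medians of 75.7 and 74.1 CPM (0.10 ± 0.10, adjusted p = 0.469), and the tibialis anterior exceeded it in change by 2.09 ± 0.19 (adjusted p = 2.93e-22).

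Kcna7, a delayed rectifier of the Shaker family that is abundant in muscle and heart, fell in the limb muscles. In the tibialis anterior it had 141 to 177 CPM (median 163) at 6 months and 21.4 to 135 CPM (median 68.2) at 27 months, with no overlap (-1.33 ± 0.17, adjusted p = 1.14e-10). The gastrocnemius went from a median of 170 to 74.5 CPM (-1.10 ± 0.12, adjusted p = 9.97e-12), with 10 of 11 old libraries below every young one. The soleus went from 64.7 to 30.5 CPM (-0.91 ± 0.12, adjusted p = 1.41e-09), with 11 of 12 below. The diaphragm had 92.1 and 87.6 CPM (-0.20 ± 0.07, below the fold threshold).

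The fast-gating Kv3 subunits, which allow short action potentials at high rates, differed among muscles. Kcnc1 fell in the gastrocnemius from 25.6 to 43.6 CPM (median 33.4) to 5.41 to 23.2 CPM (median 15.5) without overlap (-1.12 ± 0.18), and in the tibialis anterior from a median of 43.1 to 20.9 CPM (-1.10 ± 0.17). In the soleus its medians were 4.55 and 5.59 CPM (0.31 ± 0.20, adjusted p = 0.197). Kcnc4 was called in the soleus only, where it rose from 22.5 to 40.7 CPM (median 26.7) to 36.9 to 194 CPM (median 108), a change of 1.93 ± 0.21 (adjusted p = 1.19e-12), and 11 of 12 old libraries exceeded every young one. The fast myosin heavy chain genes Myh1 and Myh4 were also called higher in the old soleus, at 9.29-fold and 8.48-fold (medians of 59.4 to 838 CPM and 8.39 to 97.7 CPM), and their part in the Kcnc4 change was not tested. The soleus change of Kcnc4 exceeded that of the diaphragm by 1.95 ± 0.20, that of the gastrocnemius by 1.88 ± 0.20 and that of the tibialis anterior by 2.11 on the log2 scale (difference of tibialis anterior minus soleus -2.11 ± 0.20, adjusted p = 1.17e-20). At 24 months the soleus libraries spread from 15.1 to 90.0 CPM (median 35.1) and the change was 0.54, not called.

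Among the transient, A-type subunits, Kcnd3 rose in the gastrocnemius from 0.674 to 1.20 CPM (median 1.08) to 2.41 to 4.6 CPM (median 2.99), without overlap (1.63 ± 0.18, adjusted p = 1.66e-12). The tibialis anterior gave 1.62 ± 0.18, and the soleus, whose young level was higher (median 4.45 CPM), rose by 0.82 ± 0.16. The diaphragm, at 10.7 and 11.4 CPM, gave 0.22 ± 0.18 (adjusted p = 0.307). Its relative Kcnd2 was called higher in the soleus (2.17 ± 0.63) and the tibialis anterior (1.66 ± 0.43), at medians below 0.25 CPM in both groups. Kcna1 fell in the gastrocnemius (-1.19 ± 0.20) and the tibialis anterior (-0.85 ± 0.22). Kcna5 fell in the gastrocnemius (-0.70 ± 0.17, median 4.99 to 2.84 CPM). Kcna3, a channel also known from lymphocytes, was called higher in the gastrocnemius (0.64 ± 0.26) and tibialis anterior (1.43 ± 0.34) at medians below 0.4 CPM, and the gastrocnemius call was lost without any 1 of 6 single libraries.

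In the diaphragm the called voltage-gated members were others. Kcnh1, the ether-a-go-go channel, rose from 3.18 to 6.43 CPM (median 4.30) at 6 months to 4.50 to 15.1 CPM (median 9.33) at 27 months (1.14 ± 0.15, adjusted p = 3.17e-09), with 10 of 12 old libraries above every young one. Kcna6 went from a median of 0.112 to 0.725 CPM (2.81 ± 0.48, adjusted p = 1.1e-06), a change larger than in the soleus by a tested difference (-2.54 ± 0.67 for the soleus minus the diaphragm, adjusted p = 0.00105). In the gastrocnemius and tibialis anterior Kcna6 did not pass the filter on low counts, and its medians were 0 CPM at 6 and 27 months.

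Inward rectifiers set the resting conductance. Kcnj11 encodes the pore of the ATP-sensitive channel of the fibre, which opens when ATP is low. In the gastrocnemius it had 305 to 476 CPM (median 349) at 6 months and 118 to 200 CPM (median 154) at 27 months. In the tibialis anterior it had 334 to 393 CPM (median 369) and 114 to 243 CPM (median 147), and in the soleus 192 to 241 CPM (median 208) and 83.1 to 144 CPM (median 104). Every old library of these 3 muscles lay below every young one. The changes were -1.20 ± 0.09 (adjusted p = 1.5e-18), -1.25 ± 0.11 (adjusted p = 3.26e-17) and -0.93 ± 0.09 (adjusted p = 9.22e-15). The diaphragm, which had a young level of 100 to 151 CPM (median 120), had 94.1 to 145 CPM (median 116) at 27 months (-0.10 ± 0.07, adjusted p = 0.211), so the old limb medians of 104 to 154 CPM lay near the diaphragm level. The tested difference of the tibialis anterior from the diaphragm was -1.20 ± 0.13 (adjusted p = 7.15e-16).

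Kcnj8, the other pore of ATP-sensitive channels and one also known from blood vessels, fell in the gastrocnemius (-1.11 ± 0.13, median 16.8 to 8.60 CPM), tibialis anterior (-0.78 ± 0.10, 17.6 to 11 CPM) and soleus (-0.66 ± 0.08, 19.0 to 11.4 CPM). In the diaphragm it changed by -0.35 ± 0.05, below the fold threshold. The sum of 5 endothelial markers was also lower in most old libraries of the limb muscles. It went from 330 to 407 CPM to 207 to 293 CPM in the gastrocnemius and from 391 to 483 to 287 to 483 CPM in the tibialis anterior. The soleus went from 382 to 455 to 281 to 404 CPM, and 1 of 5 was called lower in each limb muscle. The diaphragm sum went from 516 to 626 CPM to 431 to 553 CPM, with 0 called. The part of these markers in the Kcnj8 change was not tested. In bulk samples fewer cells of a type and less RNA per cell cannot be told apart.

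Of the strong inward rectifiers, Kcnj12 fell in the gastrocnemius from 134 to 194 CPM (median 153) to 58.7 to 121 CPM (median 82.3) without overlap (-0.91 ± 0.11) and in the tibialis anterior from a median of 120 to 72.8 CPM (-0.83 ± 0.10). The soleus, at 26.2 and 23.1 CPM, gave -0.21 ± 0.10 (adjusted p = 0.0661). Kcnj2, the classical inward rectifier, stayed within the fold threshold in every muscle, between -0.43 ± 0.07 in the tibialis anterior and 0.07 ± 0.07 in the diaphragm. The G-protein-gated rectifiers went the other way. Kcnj3 rose in the soleus from 3.43 to 6.48 CPM (median 4.63) to 6.58 to 25.5 CPM (median 13.2) without overlap (1.49 ± 0.22, adjusted p = 2.48e-08), in the gastrocnemius from a median of 1.61 to 5.17 CPM (1.91 ± 0.23) and in the tibialis anterior from 1.20 to 3.02 CPM (1.49 ± 0.25). The diaphragm change, 0.58 ± 0.17 from 12.3 to 17.8 CPM, lay at the fold threshold and was called when any 1 of 13 single libraries was left out. Kcnj6 was called higher in the diaphragm (0.90 ± 0.28), gastrocnemius (0.70 ± 0.26) and soleus (1.71 ± 0.53), all at medians below 0.6 CPM; the gastrocnemius value rested on replicate 4 of 6 months and was 0.42 without it. Kcnj13, a rectifier of weak potassium dependence, was called higher in the diaphragm alone (0.59 ± 0.18, median 2.15 to 3.26 CPM), a call that was lost without any 1 of 9 single libraries.

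Tandem-pore channels carry background leak currents. Kcnk5 rose in the diaphragm (0.76 ± 0.12, median 1.99 to 2.95 CPM, adjusted p = 8.89e-08), with 11 of 12 old libraries above every young one. Kcnk2, a stretch-sensitive channel, fell in the soleus (-0.67 ± 0.11, 9.75 to 6.17 CPM). Kcnk13 was called higher in the gastrocnemius (0.75 ± 0.25) and tibialis anterior (1.55 ± 0.37) and Kcnk3 in the tibialis anterior (0.90 ± 0.25), all at medians below 0.6 CPM. Kcnk1 was called lower in the soleus (-1.40 ± 0.51, 0.451 to 0.207 CPM), a call that replicate 7 of 27 months decided (-0.99 without it). Of 6 tested members, 1 was called in the diaphragm (7.52% of all genes) and 2 each in the soleus (15%) and tibialis anterior (27.6%). The gastrocnemius had 1 of 5 (22.8%).

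Accessory proteins change the gating and surface number of the pore subunits. Kcnip2, a calcium-binding partner of the Kv4 channels, moved in opposite directions: in the soleus it went from 4.25 to 7.23 CPM (median 5.78) to 1.20 to 4.65 CPM (median 2.57), and in the tibialis anterior from 1.83 to 3.63 CPM (median 2.65) to 3.57 to 9.16 CPM (median 4.49). In each of these muscles 11 of 12 old libraries lay outside the young range. The changes were -1.14 ± 0.17 (adjusted p = 1.16e-08) and 0.96 ± 0.12 (adjusted p = 4.99e-11), and their difference was 2.11 ± 0.18 (adjusted p = 4.05e-23). The gene stood on 2 lines of each table with the same counts in 316 of 325 libraries, so its summed level counts most reads on both lines.

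Kcnab1, the beta subunit that gives Shaker channels fast inactivation, fell in the diaphragm from 5.24 to 10.3 CPM (median 7.55) to 2.44 to 5.20 CPM (median 3.59) and in the tibialis anterior from 15.3 to 22.3 CPM (median 19.1) to 3.66 to 11.9 CPM (median 6.82). Both pairs of groups were free of overlap. Overlap was not counted over all genes, so its absence describes these libraries alone. The changes were -1.17 ± 0.16 (adjusted p = 2.56e-09) and -1.44 ± 0.17 (adjusted p = 4.03e-12). In the gastrocnemius (0.03 ± 0.24) and soleus (0.27 ± 0.22) it was not called, although the soleus libraries spread from 3.52 to 20.8 CPM at 27 months against 5.79 to 13.7 CPM at 6 months. The tibialis anterior differed from the gastrocnemius by -1.47 ± 0.30 (adjusted p = 3.7e-05) and from the soleus by -1.71 ± 0.25 (adjusted p = 1.05e-09). Kcnip3, also a calcium-binding partner, was called higher in the diaphragm (0.67 ± 0.28), gastrocnemius (1.16 ± 0.27) and tibialis anterior (2.39 ± 0.32), at medians below 0.7 CPM, and the diaphragm call was lost without any 1 of 12 single libraries. Kcne5 was called higher in the gastrocnemius (2.39 ± 0.40, median 0.0748 to 0.621 CPM) and tibialis anterior (2.61 ± 0.47, 0.0378 to 0.25 CPM). Its 6-month libraries reached at most 0.307 and 0.143 CPM, so it passed the filter on low counts largely through older libraries. From such levels a fall could hardly be called, so the direction of these calls carries little. Kcnip3 and Kcnd2 in the tibialis anterior, at most 0.217 and 0.221 CPM at 6 months, share this limit. So do Kcnd2 in the soleus and Kcna3 in the tibialis anterior, each at most 0.296 CPM at 6 months. The same holds for Kcnip3 in the diaphragm (at most 0.333 CPM) and Kcnab2 in the gastrocnemius and soleus (at most 0.251 and 0.346 CPM). Kcnab2 was called higher in the gastrocnemius (1.53 ± 0.43) and soleus (1.60 ± 0.57), at medians below 0.4 CPM. Kcnmb1, the BK partner of smooth muscle, was called lower in the diaphragm (-0.61 ± 0.19, 1.23 to 0.915 CPM). This call was lost without any 1 of 4 single libraries. The summed smooth muscle and pericyte markers there went from 331 to 509 CPM to 276 to 455 CPM. Only 1 of these 6, Rgs5, was called lower (-0.83), while Acta2, Myh11, Tagln, Cnn1 and Pdgfrb changed by -0.23 to 0.06. The part of these markers in the Kcnmb1 change was not tested.

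**Figure D3:**
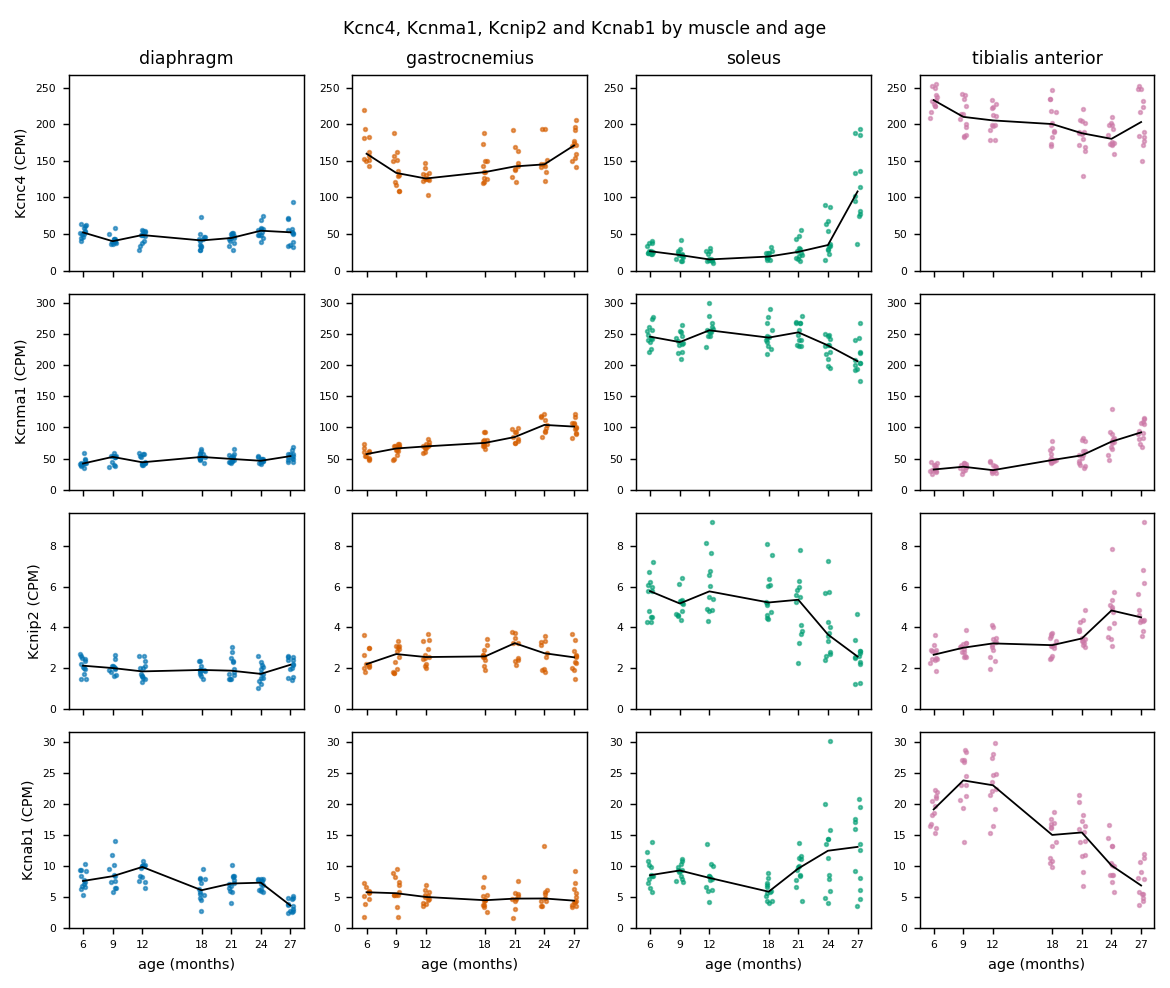
CPM (vertical axis, from 0) against age in months for Kcnc4, Kcnma1, Kcnip2 and Kcnab1 (rows) in the 4 muscles (columns); points are libraries, slightly spread sideways, and lines join the medians. Kcnc4 climbs in the soleus alone, from a median of 26.7 to 108 CPM, Kcnma1 climbs from 32.5 to 92.1 CPM in the tibialis anterior and stays above 200 CPM in the soleus, and Kcnip2 drops in the soleus and climbs in the tibialis anterior.

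A list of 23 genes that work with these channels or share their task was read in the same way. Of these, 19, 19, 21 and 18 could be tested in the muscles in the order used above. At 27 months 2, 1, 3 and 3 were higher and 1, 8, 5 and 6 lower. The shares of all genes, in this order, were 3.27%, 15.1%, 9.21% and 17.2% higher and 4.25%, 7.76%, 5.78% and 10.4% lower. Abcc8, a sulfonylurea receptor that pairs with the Kcnj11 pore, fell in all 3 limb muscles, by -1.07 ± 0.11 in the gastrocnemius (median 21.3 to 10.5 CPM), -1.07 ± 0.15 in the soleus (8.12 to 3.96 CPM) and -1.01 ± 0.15 in the tibialis anterior (22.1 to 10.5 CPM), and gave 0.35 ± 0.17 in the diaphragm (adjusted p = 0.0904). Abcc9, the other receptor, had medians of 453 to 639 CPM over the 8 groups of 6 and 27 months and did not reach the fold threshold in any muscle. Lrrc38 and Lrrc52, gamma subunits of the BK channel, fell in the 3 limb muscles, Lrrc38 by -1.32 ± 0.17, -1.0 ± 0.25 and -1.76 ± 0.22 and Lrrc52 by -1.26 ± 0.32, -2.15 ± 0.34 and -0.76 ± 0.27 in the gastrocnemius, soleus and tibialis anterior. Clcn1, the chloride channel of the resting fibre, fell in the gastrocnemius (-0.71 ± 0.08) and tibialis anterior (-0.85 ± 0.10). So did Atp1b2, a beta subunit of the sodium-potassium pump (-1.32 ± 0.13 and -1.58 ± 0.15). Dpp10, a Kv4 partner, was called higher in the soleus (3.64 ± 0.55), at a median of 0.590 CPM at 27 months.

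Young muscles already differed in their channels. At 6 months 39 of 63 members tested jointly over all muscles differed between the tibialis anterior and the soleus (all genes 42.9%), 42 between the soleus and the gastrocnemius (45.4%), and 10 between the tibialis anterior and the gastrocnemius (17.3%). The diaphragm differed from the gastrocnemius in 37 (37.3%), from the soleus in 35 (23.9%) and from the tibialis anterior in 38 (35.1%). The joint filter takes all muscles together. Of members that had passed the filter in both muscles, 31 of 47, 34 of 50, 7 of 46, 28 of 48, 28 of 52 and 29 of 48 differed, in the order given. All genes passing in both gave 42.2%, 45.2%, 17.8%, 36.9%, 21.3% and 34.1%. Between the tibialis anterior and the gastrocnemius the share of members was no larger than that of all genes. Kcnj13 set the soleus apart, with 18.0 to 38.0 CPM (median 26.5) against medians of 2.15 CPM in the diaphragm, 1.30 in the gastrocnemius and 0.706 in the tibialis anterior; its tibialis anterior minus soleus difference was -5.23 ± 0.31 (adjusted p = 2.33e-43). Kcnma1 had 222 to 277 CPM in the soleus and 26.0 to 45.1 CPM in the tibialis anterior (-2.85 ± 0.09, adjusted p = 2.88e-99). Kcnc1 and Kcnc4 were fast-muscle genes: Kcnc4 had 208 to 255 CPM in the tibialis anterior and 22.5 to 40.7 CPM in the soleus (3.03 ± 0.14, adjusted p = 9.8e-61), and Kcnc1 32.9 to 56.6 CPM and 2.63 to 9.03 CPM (3.23 ± 0.19). Kcnj12 showed the same order (2.24 ± 0.10). Kcnj3 and Kcnd3 were highest in the diaphragm, at medians of 12.3 and 10.7 CPM, and differed from it by -3.41 ± 0.31 and -3.13 ± 0.26 in the tibialis anterior. Kcng4, an electrically silent subunit, had a median of 2.79 CPM in the diaphragm and 0.106 CPM in the tibialis anterior, where it did not pass the filter on low counts. Its soleus minus diaphragm difference, between muscles where it passed, was -4.21 ± 0.62 (adjusted p = 2.77e-10). Kcnf1, also silent alone, had 0.0312 CPM in the diaphragm, where it did not pass, and 0.830 CPM in the soleus.

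The change from 6 to 27 months differed between muscles, in a test of the difference itself, for 24 members in the tibialis anterior against the diaphragm (20.3% of all genes), 22 in the gastrocnemius against the diaphragm (21.6%), 20 in the soleus against the diaphragm (11.9%), 20 in the tibialis anterior against the soleus (15.8%), 17 in the soleus against the gastrocnemius (14.5%) and 5 in the tibialis anterior against the gastrocnemius (7.32%). Of members that had passed the filter in both muscles, the counts were 21 of 48, 18 of 48, 19 of 52, 19 of 47, 14 of 50 and 5 of 46. All genes passing in both gave 20.7%, 22.6%, 11.5%, 15.4%, 14.2% and 7.85%, in the same order. The 5 of the last pair were Kcnab1, Kcnip2, Kcnip3, Kcnma1 and Kcnn2. For Kcnn3 and Kcnj11 the tibialis anterior and gastrocnemius differed by 0.05 ± 0.18 (adjusted p = 0.89) and -0.05 ± 0.14 (adjusted p = 0.824).

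At 9 months limma called no member in any muscle, where all genes gave 0.108% in the diaphragm, 0.143% in the gastrocnemius, 0.123% for the soleus and 0.00851% for the tibialis anterior. At an unadjusted p under 0.05 it found 8, 7, 8 and 10 members. The counts that follow name the muscles in this order. At 12 months 1, 3, 3 and 0 members were called (0.532%, 0.885%, 0.353% and 0.196% of all genes), and the tibialis anterior had 10 at an unadjusted p under 0.05 by limma. At 18 months it was 4, 8, 7 and 10 (2.25%, 4.32%, 2.84% and 5.45%), and at 21 months 4, 11, 8 and 12 (1.68%, 5.81%, 2.61% and 6.47%). At 24 months 3, 19, 12 and 22 were called (2.68%, 18.8%, 6.51% and 14.5%). As a share of tested members the 18-month counts were 7.27%, 15.7%, 12.7% and 19.6%, and the 24-month counts 5.45%, 37.3%, 21.8% and 43.1%, above the share of all genes in each muscle.

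**Figure D4:**
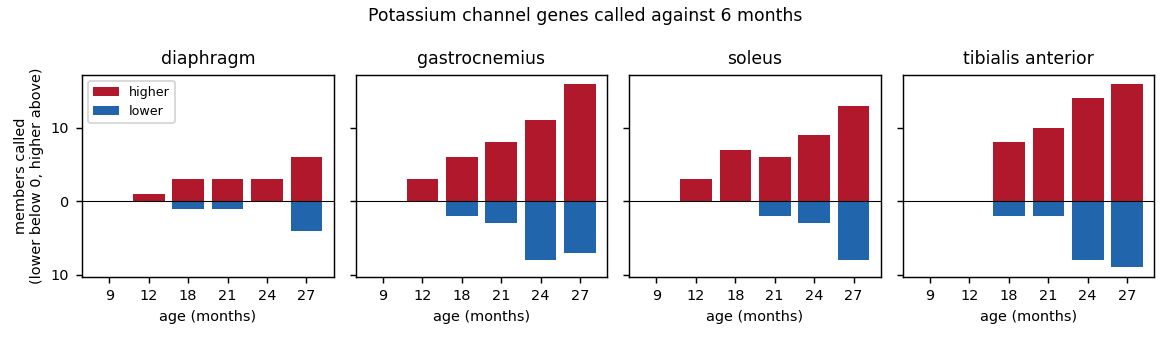
Number of potassium channel genes called against 6 months (vertical axis; higher above 0 in red, lower below 0 in blue) at each later age (horizontal axis, months) in the 4 muscles. The bars grow from 0 at 9 months to 6 higher and 4 lower in the diaphragm and 16 higher and 9 lower in the tibialis anterior at 27 months.

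Kcnj3 was among the earliest to rise. It was called by limma at 12 months in the gastrocnemius (1.13 ± 0.24, adjusted p = 0.00291) and soleus (0.90 ± 0.24, adjusted p = 0.0242). The soleus call at 12 months cannot be told apart from the series of running numbers. At 21 months Kcnj3 was called in all 4 muscles, least in the diaphragm (0.86 ± 0.17), followed by the tibialis anterior (1.17 ± 0.25), the gastrocnemius (1.66 ± 0.24) and the soleus (1.87 ± 0.22). Kcnh1 rose in mid-life and then parted between muscles. At 18 months all 4 muscles had a call, the soleus at 1.18 ± 0.30, the tibialis anterior at 1.04 ± 0.21, the diaphragm at 0.94 ± 0.15 and the gastrocnemius at 0.92 ± 0.22, and at 21 months again in all 4 (1.02, 0.97, 0.99 and 1.01). At 27 months the diaphragm stayed high (1.14 ± 0.15), while the gastrocnemius (-0.43 ± 0.25), soleus (0.24 ± 0.33) and tibialis anterior (-0.16 ± 0.24) were not called. Its median in the tibialis anterior went from 4.89 CPM at 6 months to 9.87, 10.3, 7.26 and 5.16 CPM at 18, 21, 24 and 27 months. The 27-month change of the gastrocnemius differed from that of the diaphragm by -1.63 ± 0.29 (adjusted p = 2.83e-07) and that of the tibialis anterior by -1.35 ± 0.29 (adjusted p = 2.37e-05).

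A gene counted as age-related if at least 1 age gave a call and its course was fitted better by a line or a logistic curve than by a constant. This held for 24 of 51 tested members in the tibialis anterior (26.7% of all genes), 19 of 51 in the gastrocnemius (23.4%), 15 of 55 in the soleus (12.6%) and 7 of 55 in the diaphragm (6.71%). The courses were linear in 13, 11, 6 and 5 and late, with the midpoint of the change after 21 months, in 11, 6, 7 and 2. Kcnj11 and Kcna7 fell late in all 3 limb muscles, with midpoints of 22 and 21.75 months in the gastrocnemius, 23 and 24 in the soleus and 22.25 and 23.25 in the tibialis anterior. Kcnn3 and Kcnq5 had midpoints of 20.25 and 21 months in the gastrocnemius, 25.25 and 23.5 in the soleus and 22.25 and 22.5 in the tibialis anterior. Kcnc4 in the soleus had its midpoint at 25.25 months, and Kcnd3 and Kcnj3 in the soleus were the only early ones, both at 10.5 months. The soleus libraries of 12 months stood in another series of running numbers than those of 6 and 9 months. This early timing therefore cannot be told apart from the series. Kcnc1 fell along a line in both fast muscles and was called from 18 months on, at -1.0 in the gastrocnemius and -0.83 in the tibialis anterior.

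Kcnn3 had the largest change on average over the 4 muscles among members tested in all of them (mean size 1.68 on the log2 scale). The members whose 28 group means, taken from the 6-month mean of each muscle, were most like those of Kcnn3 were Kcnq5 (Pearson r = 0.961) and Kcnd3 (0.887), and the least alike were Kcna7 (-0.949), Kcnj11 (-0.949) and Kcnj8 (-0.878). The points of one muscle share its 6-month libraries, so these values describe the courses and carry no test.

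Old libraries of one age differed widely. The summed level of 8 genes that fibres switch on when they lose their nerve (Chrng, Chrna1, Myog and Runx1 among them) went from 52.2 to 79.7 CPM at 6 months to 604 to 2780 CPM at 27 months in the tibialis anterior, from 78.4 to 103 CPM to 434 to 1570 CPM in the gastrocnemius, from 192 to 237 CPM to 339 to 1560 CPM in the soleus and from 78.4 to 123 CPM to 147 to 668 CPM in the diaphragm. All 8 were called higher in every muscle. The study surveyed some of these genes in the same samples, so the list is not independent of them. In the tibialis anterior and gastrocnemius, libraries of 24 or of 27 months with more of these markers had more Kcnn3. After seeing the data, log2 levels of 10 channels known in skeletal muscle and called in at least 2 muscles were correlated with the log2 sum. This was done within each muscle at 24 and 27 months, 80 relations in all, of which 39 passed an adjusted p of 0.05. The 80 include the diaphragm at 27 months and the soleus at 24 months, whose libraries fell into separate clusters. The count of 39 therefore cannot be read as a count of graded relations. Member and sum come from the same libraries and share their scaling. In the tibialis anterior at 27 months Kcnn3 gave Pearson r = 0.986 and Spearman rho = 0.965 over 12 libraries (permutation p = 1e-05 each, the smallest that 100000 resamples can give, adjusted 0.00013 and 0.0004), and r = 0.970 without the 2 libraries farthest from the median sum. At 24 months it gave r = 0.983 and rho = 0.972, and 0.977 without replicate 6, which stood apart from its group. The gastrocnemius gave r = 0.980 and rho = 0.945 at 27 months and r = 0.960 and rho = 0.967 at 24 months (9 libraries, exact permutation p = 4.1e-05 and 0.00017, adjusted 0.00033 and 0.0017).

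Other members followed the same order of libraries. Kcnq5 in the tibialis anterior gave r = 0.957 at 24 and 0.910 at 27 months (permutation p = 1e-05 and 7e-05, adjusted 0.00013 and 0.00043; rho = 0.881 and 0.839, adjusted p = 0.0022 and 0.0065 by permutation), and 0.967 and 0.752 without the 2 farthest libraries. Kcna7 went against the sum in the tibialis anterior, with r = -0.858 and -0.866 (permutation p = 1e-05 and 0.00057, adjusted 0.00013 and 0.0022; rho = -0.923 and -0.881, adjusted 0.0011 and 0.0029), and -0.950 and -0.868 without the 2 farthest. Kcnj11 there gave r = -0.873 and -0.854 (permutation p = 0.00045 and 0.00067, adjusted 0.0020 and 0.0023; rho = -0.825 and -0.776, adjusted 0.0081 and 0.017), and -0.798 and -0.537 without the 2 farthest. In the gastrocnemius at 27 months Kcnj11 gave r = -0.738 (permutation p = 0.0092, adjusted 0.021) but rho = -0.455 (permutation p = 0.17, adjusted 0.26) and r = -0.338 without the 2 farthest, so that relation rested on those libraries. Kcnj8 in the tibialis anterior at 27 months gave r = 0.146 (permutation p = 0.65, adjusted 0.76; rho = 0.140, adjusted 0.73) and -0.147 without the 2 farthest.

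In the diaphragm at 27 months and the soleus at 24 months the libraries fell into separate clusters, so no correlation is given. In the old diaphragm 5 libraries with marker sums of 333.9, 405, 466.7, 476.9 and 668.4 CPM had Kcnn3 at 49.42, 54.49, 61.79, 51.90 and 70.50 CPM, and the other 7 had sums of 147.2 to 202.7 CPM and Kcnn3 at 28.97 to 35.26 CPM. Kcnn3 was higher in each of the 5 than in any of the 7. In the soleus at 24 months 4 libraries with sums of 759.1 to 1023 CPM had Kcnn3 at 91.66 to 123.4 CPM and Kcna7 at 22.74 to 33.17 CPM, while the other 8, with sums of 231.9 to 406.5 CPM, had Kcnn3 at 35.75 to 74.60 CPM and Kcna7 at 46.16 to 67.26 CPM. Kcnc4 was also higher in each of these 4, at 64.52 to 89.98 CPM, than in any of the 8, at 15.08 to 54.31 CPM.

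**Figure D5:**
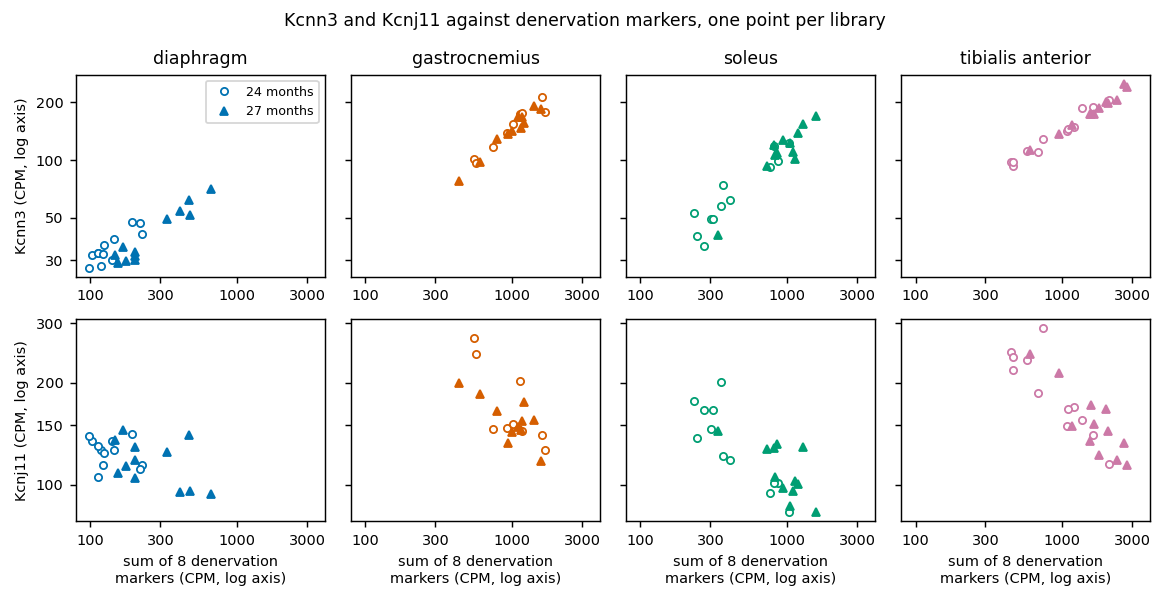
CPM of Kcnn3 (upper row) and Kcnj11 (lower row) against the sum of 8 denervation markers (CPM), both on log axes, with one point per library of 24 months (open circles) and 27 months (filled triangles) in the 4 muscles. In the limb muscles Kcnn3 climbs with the sum, in the tibialis anterior Kcnj11 falls with it, and in the diaphragm the 5 old libraries with sums above 300 CPM have the 5 highest Kcnn3 levels of that age.

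Markers of other cells moved in part with age as well. All 6 macrophage markers were called higher at 27 months in the gastrocnemius (sum 129 to 204 CPM at 6 and 216 to 384 CPM at 27 months) and tibialis anterior (64 to 108 and 124 to 266 CPM), 1 of 6 in the soleus and 0 in the diaphragm. All 4 adipocyte markers were higher in the 3 limb muscles (sums of 5.70 to 24.9 and 31.5 to 51.2 CPM in the tibialis anterior, 6.94 to 42.9 and 20.1 to 54.3 CPM in the gastrocnemius, 28.9 to 149 and 140 to 376 CPM in the soleus) and 0 in the diaphragm. T cell markers summed to at most 4.80 CPM in any of these groups, and 1 or 2 of 5 were called higher in each muscle. Of the 7 Schwann cell markers 1 was higher and 2 lower in the gastrocnemius, 1 higher in the soleus, 2 higher in the tibialis anterior and 0 called in the diaphragm. Of the 4 fibroblast markers 2 were lower in the diaphragm, 1 each in the soleus and gastrocnemius, while the tibialis anterior had 0. Among the 6 muscle fibre genes 3 were lower in the tibialis anterior and 2 in the gastrocnemius, and 1 in the diaphragm and 2 in the soleus (Myh1 and Myh4) higher. In the gastrocnemius 2 of 6 smooth muscle and pericyte markers were higher and 1 lower, as in the tibialis anterior, and 1 was lower in the soleus. Of 4 red cell markers 2 were listed, and none was called. No marker listed was at 0 throughout, and the part of these cells in the changes of Kcna3, Kcnn4 and the other members was not tested.

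The members that were not called at 27 months include some at clear levels. Kcnj2 was tested in all 4 muscles at medians of 26.6 to 43.9 CPM over the groups of 6 and 27 months. Kcnn1, the SK1 channel, kept medians of 2.44 to 4.23 CPM, with changes of 0.05 to 0.18. Kcnq1, known from the heart, changed by -0.14 to 0.34 and Kcne2 by -0.11 to 0.49, neither reaching the fold threshold. Kcne3, a partner of Kcnc4 in muscle, gave -0.58 ± 0.29 in the soleus (adjusted p = 0.0831) and was not called elsewhere, at medians below 0.6 CPM. Many of the other uncalled members lay below 1 CPM, where the standard errors reached 0.63 on the log2 scale (Kcna10 in the tibialis anterior).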

How the data were processed

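Raw read counts per gene were deposited by the authors for each library, made from strand-specific total RNA reads with a RefSeq-based rat gene model on the B6.0 reference; the aligner version is not given in the sources used here. Counts were not normalised by the authors. Lines of one symbol were summed, and levels are CPM with TMM factors over all 325 libraries. Genes were filtered with filterByExpr (minimum count 10, minimum total 15) and fitted per muscle over the 7 ages by limma-voom (limma 3.58.1, edgeR 4.0.16, R 4.3.3), as the methods of the study name limma. Tests against 6 months were two-sided and adjusted by Benjamini-Hochberg over all genes tested. Differences between muscles came from a joint fit over the 28 groups. Age courses were flat, linear or logistic, chosen by BIC (a gain of over 6 for a trend and over 2 for the logistic form), early before 12 and late after 21 months. The procedure was tested on simulated counts.

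The members and lists were chosen with earlier results of these data known. Genes named in the text were those called in at least 2 muscles, in each muscle the 3 largest rises and falls among called members averaging over 0 log2 CPM there, the largest called difference and interaction of each pair of muscles, and a panel of channels known in muscle; other names complete a count and were chosen after their values were seen. Libraries are separate samples by their labels, but the rat behind each is not given, so muscles of one rat may be treated as independent and p-values measure the spread between libraries. Depth was 17.6 to 85.3 M counts, and its counting error is part of the spread. Alternatives were edgeR's quasi-likelihood test, DESeq2 1.42.0, other scalings, thresholds and filters, sample weights, a replicate block and the omission of single libraries. The values of a few genes that these rules name are not reported here.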

Additional observations from a re-analysis of the deposited data

Results flagged for a closer look

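In the gastrocnemius, whose groups held 10 or fewer libraries at some ages, 63 groups of values of the named members were examined for a single library far from the rest, and 7 had one; chance gives about 1 in 20. Replicate 4 of 6 months had 476 CPM of Kcnj11 (next library 391 CPM) and 0.0778 CPM of Kcnj6 (next 0.326 CPM), and it is one of the libraries that stood apart from their group. Replicate 2 of 6 months had 0.652 CPM of Kcnk13 (next 0.415 CPM). At 21 months replicate 5 had 5.95 CPM of Kcna5 (next 3.04 CPM), replicate 7 had 97.5 CPM of Kcna7 (next 131 CPM) and replicate 2 had 0.819 CPM of Kcne5 (next 0.432 CPM). At 24 months replicate 7 had 3.12 CPM of Kcnf1 (next 1.49 CPM).

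The change from 6 to 27 months differed between muscles for 29 of the 36 named members in the joint limma fit. A pair of muscles counted only if the member passed the filter on low counts in both. Named members were chosen partly for their changes and for such differences in these data, so a high count follows from that choice. The largest difference of each member reported here is given on the log2 scale. For the gastrocnemius minus the diaphragm it was -1.09 for Kcna1, -0.82 for Kcna5, -1.63 for Kcnh1, -0.79 for Kcnj12, 1.27 for Kcnj3, -0.82 for Kcnj8 and 0.65 for Kcnt2. For the tibialis anterior minus the diaphragm it was -1.19 for Kcna7, 1.35 for Kcnd3, -1.20 for Kcnj11, 0.91 for Kcnmb1, 1.71 for Kcnn3 and 2.09 for Kcnq5. For the soleus minus the diaphragm it was -2.54 for Kcna6, 1.83 for Kcnd2, 1.92 for Kcng4, -1.14 for Kcnj13 and 1.31 for Kcnn2, and for the soleus minus the gastrocnemius 1.42 for Kcnc1. For the tibialis anterior minus the soleus it was 1.22 for Kcna3, -1.71 for Kcnab1, -2.11 for Kcnc4, 2.11 for Kcnip2, 2.38 for Kcnip3, -1.28 for Kcnj6, 1.76 for Kcnk13 and 1.66 for Kcnma1. The differences of Kcna3, Kcnd2 and Kcnip3 start from 6-month levels near the filter on low counts. At 6 months Kcnd2 in the soleus and Kcna3 in the tibialis anterior had at most 0.296 CPM, and Kcnip3 in the tibialis anterior at most 0.217 CPM.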

How the results depend on the processing

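Of 67 named changes, 29 kept their call under all 10 alternatives and 0 turned direction; the changes of Kcnf1 in the gastrocnemius, Kcng4 in the soleus and Kcnmb1 in the diaphragm lost their call under 5 each. Counts stayed within 1.5 times under edgeR, DESeq2, RLE factors, no filter, quality weights and, chosen after seeing the data, without the 6 libraries that stood apart. Bonferroni adjustment left 3, 7, 6 and 10 members higher in the diaphragm and the gastrocnemius, soleus and tibialis anterior, and 2 lower in the diaphragm and 5 in the soleus. It left 21, 22 and 22 differing at 6 months for the gastrocnemius, soleus and tibialis anterior against the diaphragm, 23 for soleus against gastrocnemius, 2 for tibialis anterior against gastrocnemius and 24 for tibialis anterior against soleus, and 9, 8, 8, 4, 3 and 6 whose change differed. A 2-fold threshold left 2 higher, 1 lower and 3 age-related in the diaphragm, 9 higher in the gastrocnemius, 4 lower in the soleus, and 5 lower and 15 age-related in the tibialis anterior. It left 27 differing at 6 months for soleus against gastrocnemius, and 11, 3 and 13 whose change differed for soleus against gastrocnemius, tibialis anterior against gastrocnemius and tibialis anterior against soleus. These stricter thresholds lower counts by construction. Total-count scaling gave 4 lower in the tibialis anterior; the cause was not tested. Leaving out single libraries gave 4 to 7, 14 to 18, 12 to 14 and 16 to 17 higher and 3 to 4, 7 to 8, 7 to 9 and 8 to 9 lower.

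Same-numbered libraries of 6 and 27 months did not deviate together (r -0.239 to 0.381). Between muscles at one age same-numbered libraries did so in part, with median r from 0.034 (diaphragm and gastrocnemius) to 0.2 (diaphragm and tibialis anterior) and the best match in 13 of 72 to 43 of 84 pairs; the joint fit took all libraries as independent. With the replicate number as a block, 5, 16, 13 and 16 members were higher and 4, 7, 8 and 8 lower in the 4 muscles. Between muscles the block gave 35, 32, 39, 38, 10 and 40 at 6 months and 21, 21, 24, 17, 6 and 19 for the change.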
